A study of Mus musculus with 44 samples.

Results

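Glucocorticoid signalling in the dorsal hippocampus was followed through 10 genes: the receptors Nr3c1 and Nr3c2, the steroid-activating enzyme Hsd11b1, and the target genes Fkbp5, Sgk1, Tsc22d3, Zbtb16, Pdk4, Cdkn1a and Errfi1. The genes were chosen by name for their place in the pathway, with earlier results of these data known. All 10 were found among the 27179 genes counted. RNA was sequenced from WT mice and from Kdm5bDARID/DARID mice (Kdm5b mutants), at baseline (0 h, naive) and 1 h or 3 h after contextual fear conditioning with 3 foot shocks of 0.7 mA. Each of the 6 groups held 6 libraries, 3 labelled male and 3 labelled female. The mice were F2 animals of a C57BL/6J and 129S2/Sv intercross, so loci linked to Kdm5b on chromosome 1 may differ in strain origin between genotypes. The mutant allele removes the ARID domain and part of the JmjN domain of the histone H3K4 demethylase KDM5B and was carried in the germ line, so it is present in every cell type and throughout development. The labels do not say in so many words that each library is a separate animal, and p-values measure the spread between these libraries. There was no group that saw the chamber without shock, so shock, context, handling and time of day cannot be told apart in the comparisons over time.

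Corticosterone, the main glucocorticoid of the mouse, is released by the adrenal gland under stress and with the daily rhythm. It binds the mineralocorticoid receptor (Nr3c2) with high affinity and the glucocorticoid receptor (Nr3c1) with lower affinity, and both are abundant in the hippocampus. The bound receptor enters the nucleus and acts on DNA at glucocorticoid response elements, where it raises genes such as Fkbp5, whose product holds back the receptor itself. Several of these targets, Sgk1 and Errfi1 among them, also respond to neuronal activity or growth factors.

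Library totals ran from 40.3 M to 107.0 M counts (M, mega). Levels are given in CPM after TMM scaling, and the lowest count of any of the 10 genes in a library was 274, for Cdkn1a. Fold changes are log2 estimates with their standard error (SE) from edgeR's quasi-likelihood test, and a change is called at a Benjamini-Hochberg adjusted p under 0.05 over all genes tested. Transcripts that mark sex went against the label in 2 libraries, WT 1 h male 1 and mutant 3 h female 2. The library labelled WT 1 h male 1 had 11.7 CPM of the immediate early gene Fos and 113 CPM of Arc, below the other 5 of its group (Fos 19.2 to 34.4 CPM, Arc 149 to 372 CPM). The library labelled mutant 3 h female 2 had 43.9 CPM of Fos and 332 CPM of Arc, above the other 5 of its group (Fos 6.42 to 11.6 CPM, Arc 73.1 to 125 CPM). Npas4, a further immediate early gene, was 16.6 CPM in the first, inside the range of its group (9.89 to 23.2 CPM), and 18.6 CPM in the second, above the other 5 (6.04 to 10.8 CPM). An exchange of labels between these 2 libraries, which would change the genotype and time of each, was not tested, and both keep their labels here. Results that rest on them are given with and without both. Gene-level counts of Kdm5b averaged 83.8 CPM in mutants and 88.7 CPM in WT, and since they include exons outside the deletion they do not check the genotype. They were lowest among WT in WT 1 h male 1 (79.6 CPM) and highest among mutants in mutant 3 h female 2 (93.6 CPM). Marker genes of neurons, CA1, CA3 and dentate granule cells were detected throughout. Of all libraries, mutant 3 h female 2 had the highest summed oligodendrocyte (9720 CPM) and thalamus markers (117 CPM) and the lowest neuron markers (7360 CPM). The choroid plexus markers Ttr, Folr1, Kl and Clic6 together ran from 42.2 to 7870 CPM among libraries, with medians of 2070, 1030 and 2170 CPM in WT and of 190, 123 and 1460 CPM in mutants in the order of time. In bulk tissue, fewer cells of a type and less RNA per cell cannot be told apart.

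**Figure D1:**
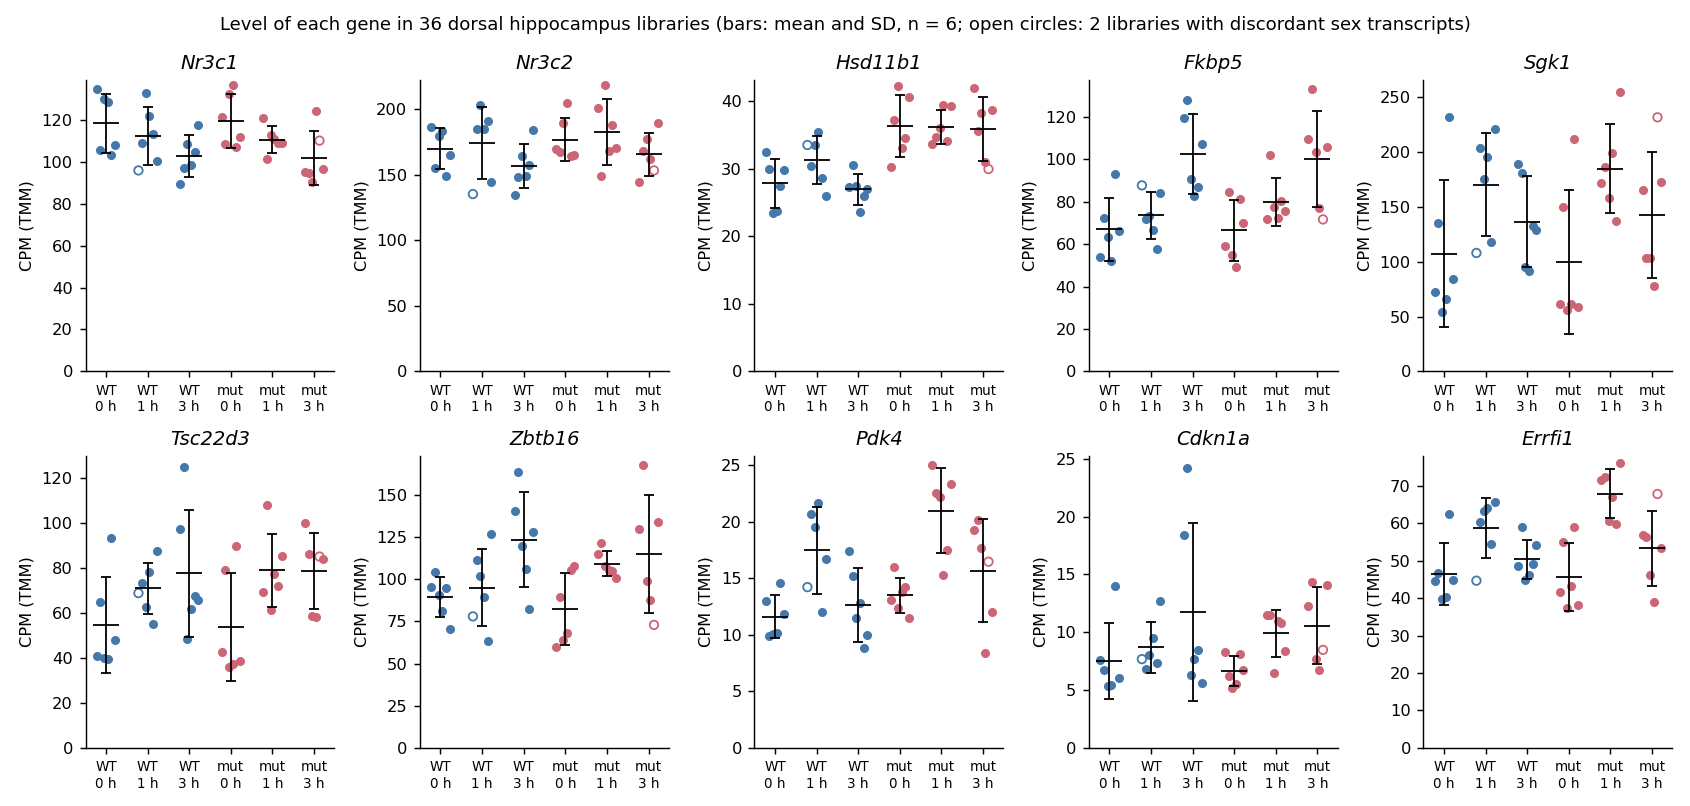
Level of each of the 10 genes (CPM after TMM scaling, vertical axis from 0) in every library, by genotype and hours after conditioning. Points are libraries, bars are the mean and SD of 6, and open circles are the 2 libraries with discordant sex transcripts. Hsd11b1 is higher in mutants at each time, Fkbp5 is highest at 3 h, and Pdk4 and Errfi1 are highest at 1 h.

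Per kilobase of exon, Sgk1 (28.6 ± 12.1 CPM per kb, SD over 36 libraries) and Nr3c2 (26.4 ± 3.17) stood highest. Zbtb16 (19.4 ± 4.92), Tsc22d3 (15.9 ± 5.04), Errfi1 (15.0 ± 3.01) and Nr3c1 (14.4 ± 1.69) followed, then Fkbp5 (8.62 ± 2.22), Hsd11b1 (7.62 ± 1.23), Pdk4 (4.36 ± 1.27) and Cdkn1a (2.59 ± 1.14). Each gene lay within 1 SD of its neighbour in this order except Nr3c1 against Fkbp5, Hsd11b1 against Pdk4, and Nr3c2 against Zbtb16, where the gap exceeded the SD of both genes; the gap of Pdk4 to Cdkn1a also exceeded both.

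RefSeq promoters, from 250 bases before to 50 after a transcription start in build GRCm38.p6, were listed for 8 of the 10 genes, 17 promoters in all. They were searched on both strands for the glucocorticoid response element, 2 AGAACA repeats facing each other over 3 bases of any kind (AGAACA, 3 bases, TGTTCT), for its core ACANNNTGT, for a single AGAACA repeat, and for the cAMP response element TGACGTCA, through which activity-dependent factors act. The full element and the core overlap by definition, and each full element also holds a repeat in either direction. Sgk1 is shown because 1 of its 6 promoters (chr10:21993640-21993939, plus strand) held the full element, which 3 of 32851 promoters had (0.00913%). The element is in capitals and starts at position -189 from the start of transcription. Tsc22d3 is shown for a single repeat, in capitals on the reverse strand, at position -185 (chrX:140600473-140600772, minus strand), where 19% of promoters held at least 1. Errfi1 is shown for the cAMP response element, in capitals at position -51 (chr4:150854820-150855119, plus strand), which 1.79% of promoters held. Fkbp5 (chr17:28486100-28486399, minus strand) is shown as the gene that rose at 3 h, and none of the 4 motifs was in this window.
Sgk1: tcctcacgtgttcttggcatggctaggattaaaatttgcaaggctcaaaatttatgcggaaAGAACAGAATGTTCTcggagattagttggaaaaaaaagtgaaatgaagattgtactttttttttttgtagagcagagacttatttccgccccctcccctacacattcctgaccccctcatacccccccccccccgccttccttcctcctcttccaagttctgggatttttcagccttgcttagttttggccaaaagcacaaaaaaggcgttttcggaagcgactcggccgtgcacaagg
Tsc22d3: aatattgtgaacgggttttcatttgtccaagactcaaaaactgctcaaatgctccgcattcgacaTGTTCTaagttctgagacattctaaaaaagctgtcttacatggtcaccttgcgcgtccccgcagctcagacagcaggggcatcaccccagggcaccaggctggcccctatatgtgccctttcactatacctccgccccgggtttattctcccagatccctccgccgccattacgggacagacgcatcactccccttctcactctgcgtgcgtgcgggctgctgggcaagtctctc
Errfi1: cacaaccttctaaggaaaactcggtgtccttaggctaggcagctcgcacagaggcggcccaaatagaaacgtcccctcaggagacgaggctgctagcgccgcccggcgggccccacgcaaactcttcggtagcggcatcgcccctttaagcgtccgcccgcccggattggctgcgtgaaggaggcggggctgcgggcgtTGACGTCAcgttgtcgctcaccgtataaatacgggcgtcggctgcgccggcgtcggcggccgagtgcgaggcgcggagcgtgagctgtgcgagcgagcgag
Fkbp5: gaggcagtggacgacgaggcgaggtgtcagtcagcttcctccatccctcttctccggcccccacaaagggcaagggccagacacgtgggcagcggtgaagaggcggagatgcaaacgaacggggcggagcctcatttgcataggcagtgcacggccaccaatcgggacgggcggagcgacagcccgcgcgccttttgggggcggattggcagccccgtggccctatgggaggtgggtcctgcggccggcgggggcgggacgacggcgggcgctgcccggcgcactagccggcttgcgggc
The core, which 6.85% of promoters held, was found in another Sgk1 promoter at position -127 (chr10:21978422-21978721). The Sgk1 promoter shown also held a single repeat apart from the element, on the reverse strand and left in lower case (tgttct), farther upstream. Further single repeats lay in 2 other Sgk1 promoters, at position -195 (chr10:21881934-21882233) and at position -13 (chr10:21991973-21992272). The promoters of Hsd11b1, Pdk4, Nr3c2 and Cdkn1a had no match in these windows. Response elements can lie far outside a promoter, and such regions were not searched.

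The first question was which of the genes differed after conditioning. Over both genotypes, Pdk4 and Errfi1 rose at 1 h, 2 of the 10 genes, where 1.05% of all 17907 genes tested were called. At 3 h Fkbp5 rose against 0 h, 1 of 10, where 1.57% of all genes were called. Fkbp5 was also higher at 3 h than at 1 h, where 0.486% of all genes were called. The median log2 fold change of the 10 genes was 0.31 at 1 h and 0.31 at 3 h, against -0.009 and -0.007 over all genes tested.

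**Figure D2:**
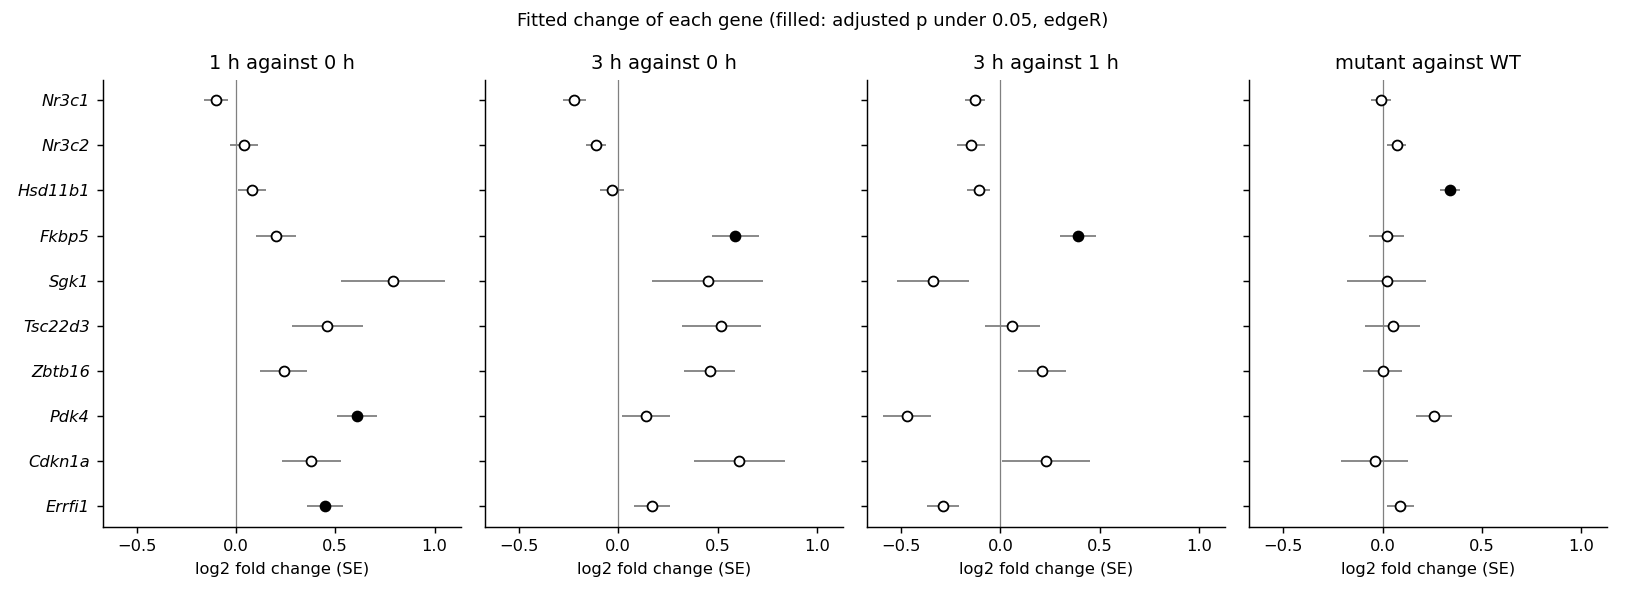
Fitted log2 fold change of each gene (horizontal axis, bars are SE) over both genotypes at 1 h and 3 h against 0 h and at 3 h against 1 h, and in mutants against WT over the 3 time points. Filled points have an adjusted p under 0.05 in edgeR. Errfi1 and Pdk4 are filled at 1 h, Fkbp5 at 3 h, and Hsd11b1 between genotypes.

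Pdk4 (chr6:5483351-5496278) encodes a kinase that shuts off pyruvate dehydrogenase and so spares glucose. Its lowest, median and highest levels in WT were 9.91, 10.99 and 14.6 CPM at 0 h, 12.01, 18.1 and 21.7 CPM at 1 h, and 8.84, 12.2 and 17.5 CPM at 3 h. The mutant levels were 11.5, 13.5 and 15.97 CPM at 0 h, 15.3, 22.4 and 25.0 CPM at 1 h, and 8.38, 17.1 and 20.1 CPM at 3 h. Of the 12 libraries at 1 h, 9 lay above every library at 0 h. The log2 fold change at 1 h was 0.61 (SE 0.10, adjusted p = 0.00392) over both genotypes and 0.63 (SE 0.11, adjusted p = 0.0204) in mutants, where 0.312% of all genes were called. Libraries of these 2 mutant groups with the same sex and replicate number deviated together (every correlation at least 0.16 over 6 pairs), and with a replicate block the value in mutants was 0.62 (adjusted p = 0.0885). With all 36 libraries in one fit it was 0.63 (adjusted p = 0.0988). In WT it was 0.59 (SE 0.15), with an adjusted p of 0.922. Leaving out 1 of 6 mutant libraries (0 h male 3, 0 h female 3, 1 h male 1, 1 h male 2, 1 h male 3 or 1 h female 3) took the adjusted p in mutants over 0.05, up to 0.0671, with log2 fold changes from 0.56 to 0.63. From 1 h to 3 h the log2 difference was -0.47 (SE 0.12, adjusted p = 0.0729), and without both discordant libraries it was -0.55 (adjusted p = 0.00831), where 2.09% of all genes were called. It passed the threshold too without WT 1 h male 1 alone (-0.51, adjusted p = 0.0283) or mutant 3 h female 2 alone (-0.50, adjusted p = 0.0336).

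Errfi1 (chr4:150853796-150868889), whose promoter with the cAMP response element is printed above, encodes a feedback inhibitor of the EGF receptor. Its lowest, median and highest levels in WT were 39.7, 44.7 and 62.4 CPM at 0 h, 44.7, 61.8 and 65.7 CPM at 1 h, and 44.8, 48.9 and 58.9 CPM at 3 h. Among mutants these were 37.2, 42.4 and 59.0 CPM at 0 h, 59.9, 69.2 and 76.0 CPM at 1 h, and 39.0, 54.9 and 67.8 CPM at 3 h. In mutants all 6 libraries at 1 h lay above all 6 at 0 h, while in WT 3 of 6 did. The log2 fold change at 1 h over both genotypes was 0.45 (SE 0.09, adjusted p = 0.0128). In mutants alone it was 0.57 (SE 0.12, adjusted p = 0.0883), and it passed without mutant 0 h male 2 (0.64, adjusted p = 0.0455) or mutant 0 h female 2 (0.66, adjusted p = 0.0195). At 3 h the log2 difference from 0 h was 0.17 (SE 0.09, adjusted p = 0.415). The difference between 3 h and 1 h was -0.29 (SE 0.08, adjusted p = 0.0984), and it passed the threshold without both discordant libraries (-0.37, adjusted p = 0.00305), without WT 1 h male 1 alone (-0.32, adjusted p = 0.0287) and without mutant 3 h female 2 alone (-0.32, adjusted p = 0.0325). WT 1 h male 1 was the lowest library at 1 h (44.7 CPM), and mutant 3 h female 2 the highest at 3 h (67.8 CPM).

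Fkbp5 (chr17:28398753-28486149) encodes the co-chaperone that lowers the affinity of the glucocorticoid receptor for hormone. The lowest, median and highest WT levels were 52.2, 64.8 and 93.3 CPM at 0 h, 57.8, 72.5 and 87.8 CPM at 1 h, and 82.6, 99.1 and 128 CPM at 3 h. Mutant libraries had 49.2, 64.6 and 84.4 CPM at 0 h, 71.7, 76.7 and 102 CPM at 1 h, and 71.7, 105 and 133 CPM at 3 h. At 3 h, 7 of 12 libraries lay above every naive library, and the lowest at 3 h was mutant 3 h female 2. The log2 fold change at 3 h was 0.59 (SE 0.12, adjusted p = 0.0157) over both genotypes, and without the discordant libraries 0.63 (adjusted p = 0.00748). It was 0.61 (SE 0.16, adjusted p = 0.421) in WT and 0.57 (SE 0.17, adjusted p = 0.379) in mutants, each with 6 libraries a time point. At 1 h the log2 fold change was 0.20 (SE 0.10, adjusted p = 0.446). From 1 h to 3 h it was 0.39 (SE 0.09, adjusted p = 0.041). That last call was lost in 18 of 24 fits that left out 1 library, with adjusted p up to 0.0896. It held without WT 1 h male 1, WT 1 h female 3, mutant 1 h male 2, mutant 1 h female 3, mutant 3 h female 1 or mutant 3 h female 2, with log2 fold changes from 0.40 to 0.43.

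Sgk1 (chr10:21882184-21999903) encodes a kinase that acts on ion channels and transporters, and its promoter with the full response element is printed above. It had the widest spread among naive animals of the 10 genes. In WT its lowest, median and highest levels were 54.2, 78.4 and 232 CPM at 0 h, 108, 185 and 221 CPM at 1 h, and 91.4, 131 and 189 CPM at 3 h. In mutants they were 55.8, 61.1 and 212 CPM at 0 h, 137, 179 and 255 CPM at 1 h, and 77.7, 135 and 232 CPM at 3 h. The log2 fold change at 1 h was 0.79 (SE 0.26) over both genotypes, larger than that of Pdk4 or Errfi1, but with an adjusted p of 0.174. Without WT 0 h female 2, the highest naive library, it was 0.95 (adjusted p = 0.0498). At 3 h the log2 fold change was 0.45 (SE 0.28, adjusted p = 0.493).

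Tsc22d3 (chrX:140539528-140600522) encodes GILZ, an anti-inflammatory glucocorticoid target. Its lowest, median and highest levels in WT were 39.7, 44.5 and 93.1 CPM at 0 h, 55.1, 71.1 and 87.3 CPM at 1 h, and 48.1, 66.5 and 125 CPM at 3 h. The mutant levels were 35.99, 40.6 and 89.7 CPM at 0 h, 61.4, 74.7 and 108 CPM at 1 h, and 57.9, 84.5 and 99.9 CPM at 3 h. The ranges overlapped at every time. The log2 fold change was 0.46 after 1 h (SE 0.18, with 0.255 as its adjusted p) and after 3 h 0.52 (SE 0.20, with 0.206).

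Zbtb16 (chr9:48651797-48836225) encodes the zinc finger repressor PLZF. The lowest, median and highest WT levels were 70.8, 92.7 and 104 CPM at 0 h, 63.2, 95.5 and 127 CPM at 1 h, and 82.3, 124 and 164 CPM at 3 h. Among mutants these were 60.0, 78.8 and 108 CPM at 0 h, 101, 107 and 121 CPM at 1 h, and 73.0, 114 and 168 CPM at 3 h. At 3 h, 7 of 12 libraries lay above every naive one, with a log2 fold change of 0.46 (SE 0.13, adjusted p = 0.0855). It passed the threshold without mutant 3 h female 2, the only discordant library in this comparison (0.51, adjusted p = 0.0391). It also passed without mutant 0 h female 2 (0.51, adjusted p = 0.0438).

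Cdkn1a (chr17:29090979-29100722) encodes the cell cycle inhibitor p21 and was the least abundant of the 10. In WT its lowest, median and highest levels were 5.35, 6.40 and 14.01 CPM at 0 h, 6.83, 7.85 and 12.7 CPM at 1 h, and 5.59, 8.08 and 24.2 CPM at 3 h. Mutant libraries had 5.17, 6.45 and 8.28 CPM at 0 h, 6.50, 10.9 and 11.5 CPM at 1 h, and 6.70, 10.4 and 14.3 CPM at 3 h. WT 3 h male 1 (18.4 CPM) and WT 3 h male 2 (24.2 CPM) stood above every other library. The log2 fold change over both genotypes after 1 h was 0.38 (SE 0.15, with 0.256 as its adjusted p), and after 3 h it was 0.61 (SE 0.23, with 0.193). Without WT 0 h female 2 both passed the threshold, at 0.52 (adjusted p = 0.0244) and 0.76 (adjusted p = 0.0462).

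The receptors Nr3c1 and Nr3c2 had the smallest ratios of highest to lowest level among the 10 genes over the 36 libraries. The lowest, median and highest Nr3c1 levels in WT were 103, 118 and 135 CPM at 0 h, 95.9, 111 and 133 CPM at 1 h, and 89.6, 102 and 118 CPM at 3 h. In mutants they were 107, 116 and 137 CPM at 0 h, 101, 110 and 121 CPM at 1 h, and 90.6, 95.8 and 124 CPM at 3 h. At 3 h, 7 of 12 libraries lay below every naive library, and the log2 difference was -0.22 (SE 0.06, adjusted p = 0.0619). The adjusted p was 0.0499 without mutant 3 h female 2, the only discordant library in this comparison (-0.23). It also passed without WT 0 h female 2 (-0.24, adjusted p = 0.0287), without mutant 0 h female 2 (-0.24, adjusted p = 0.0375) and without mutant 3 h female 1 (-0.25, adjusted p = 0.031). For Nr3c2 (chr8:76898083-77245012) the lowest, median and highest levels over both genotypes were 149, 169 and 205 CPM at 0 h, 135, 185 and 218 CPM at 1 h, and 135, 160 and 189 CPM at 3 h. Its log2 differences from 0 h after 1 h were 0.04 (SE 0.07, with 0.877 as its adjusted p), and after 3 h -0.11 (SE 0.05, with 0.355).

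The second question was whether the mutants differed from WT. Hsd11b1 (chr1:193221640-193264045) encodes the enzyme that regenerates active corticosterone inside the cell, and it was higher in mutants. Its lowest, median and highest levels in WT were 23.4, 28.6 and 32.5 CPM at 0 h, 26.0, 31.9 and 35.5 CPM at 1 h, and 23.5, 27.1 and 30.6 CPM at 3 h. The mutant levels were 30.2, 35.8 and 42.2 CPM at 0 h, 33.6, 35.4 and 39.4 CPM at 1 h, and 29.9, 36.8 and 42.0 CPM at 3 h. At 0 h and at 3 h, 5 of 6 mutants lay above all 6 WT, and at 1 h 3 of 6 did. Over the 3 time points, a comparison added after seeing the data, the log2 fold change was 0.34 (SE 0.05, adjusted p = 0.00028), where 1.3% of all 18186 genes were called, and 10 of 18 mutant libraries lay above all 18 WT. The call held in all 36 fits that left out 1 library, with adjusted p up to 0.000843, and without both discordant libraries (0.35, adjusted p = 0.000119), where 2.77% of all genes were called. At single times the log2 fold change was 0.38 before training (SE 0.10, with 0.71 as its adjusted p), 0.21 after 1 h (SE 0.07, with 0.421) and 0.41 after 3 h (SE 0.07, with 0.234). At 3 h it passed without mutant 3 h female 2, the lowest mutant and the only discordant library at that time (0.45, adjusted p = 0.0327). In that fit 0.103% of all genes were called.

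Hsd11b1 lies on the same chromosome as Kdm5b, 58.6 Mb away, and strain origin at this locus and the loss of KDM5B function cannot be told apart in these mice. The summed astrocyte markers Gfap, Aqp4, Aldh1l1 and Slc1a3 had a median of 1380 CPM (1300 to 1520) in mutants and 1330 CPM (1160 to 1490) in WT. The summed choroid plexus markers had a median of 190 CPM (51.8 to 3580) in mutants and 1630 CPM (42.2 to 7870) in WT. The CA3 markers Bok, Iyd and Coch had medians of 76.0 CPM in mutants and 65.0 CPM in WT. For dentate granule cell markers these were 272 and 244 CPM, and for mural markers 44.0 and 39.7 CPM. The ranges of each overlapped. Medians were lower in mutants for markers of neurons, CA1, fibroblasts and meninges, thalamus, neocortex and striatum. By correlation of group-centred log2 CPM over 36 libraries, the gene most like Hsd11b1 among 14311 was Col11a2 (r = 0.65), followed by Gfap (r = 0.63). The Gfap value was picked out after it was seen. The part of these in the Hsd11b1 difference was not tested.

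At 3 h 0.0115% of all genes were called between genotypes, and 0% at 0 h and at 1 h. Without the discordant libraries 0.236% were called at 1 h, and 0 of the 10 genes. No other gene of the 10 was called between genotypes in edgeR. Pdk4 was nearest, with a log2 fold change over the 3 time points of 0.26 (SE 0.09, adjusted p = 0.152). For Fkbp5 it was 0.02 (SE 0.09), for Nr3c1 -0.01 (SE 0.05) and for Nr3c2 0.07 (SE 0.05). For Sgk1 the SE was wider, at 0.20 on a log2 fold change of 0.02. The difference in response between genotypes was called for 0 of 10 genes at 1 h and for 0 of 10 at 3 h, where 0% of all genes were called by edgeR at either time, and none of the 10 had an unadjusted p under 0.05 in either, where 3.78% and 1.52% of all genes did. DESeq2 called 0 of 10 as well. For Fkbp5 that difference at 3 h was -0.02 (SE 0.24), and for Sgk1 at 1 h it was 0.21 (SE 0.53), so that moderate differences in response lie within the error. The signs of this Fkbp5 value and of the Sgk1 value over the 3 time points turned without the discordant libraries (0.05 and -0.07). Between the labelled sexes 0 of 10 genes were called (0.0825% of all genes), and Pdk4 was the 1 gene with an unadjusted p under 0.05, as 5.08% of all genes had (-0.24 in females, SE 0.09, adjusted p = 0.938).

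The naive libraries differed among themselves in several target genes. The 4 naive libraries with replicate number 2, WT male, WT female, mutant male and mutant female, had Sgk1 at 135 to 232 CPM, where the other 8 had 54.2 to 84.3 CPM. Tsc22d3 was at 65.0 to 93.1 CPM in the same 4 libraries and 35.99 to 48.0 CPM in the other 8. Fkbp5 was at 72.6 to 93.3 CPM against 49.2 to 70.1 CPM, and Errfi1 at 46.7 to 62.4 CPM against 37.2 to 45.0 CPM. For these 4 genes the ranges did not overlap. Nr3c1 went the other way, at 103 to 108 CPM in the 4 libraries and 108 to 137 CPM in the other 8, and Nr3c2 at 149 to 167 CPM against 165 to 205 CPM, and for both receptors the ranges overlapped only at their ends. Cdkn1a was at 6.21 to 14.01 CPM against 5.17 to 8.28 CPM. Zbtb16 (89.3 to 106 CPM against 60.0 to 108 CPM), Pdk4 (9.91 to 15.97 CPM against 10.1 to 13.8 CPM) and Hsd11b1 (27.4 to 37.2 CPM against 23.4 to 42.2 CPM) overlapped. The immediate early gene Fos was at 7.15 to 12.2 CPM in the 4 libraries and 5.20 to 21.5 CPM in the other 8, and Arc at 81.8 to 138 CPM against 77.9 to 200 CPM. At 1 h and at 3 h the libraries numbered 2 did not stand apart in Sgk1, Tsc22d3, Fkbp5 or Errfi1, and the ranges overlapped. Sgk1 was then at 118 to 203 CPM in the 4 against 108 to 255 CPM in the other 8 at 1 h, and at 103 to 232 CPM against 77.7 to 189 CPM at 3 h. The 108 CPM was WT 1 h male 1 and the 232 CPM mutant 3 h female 2, both discordant. Next to these came mutant 1 h male 3 (158 CPM) and WT 3 h male 2 (181 CPM), and the ranges without the discordant libraries still overlapped. The naive libraries were singled out after their values were seen, so no test is given. The labels do not say what a replicate number stands for.

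**Figure D3:**
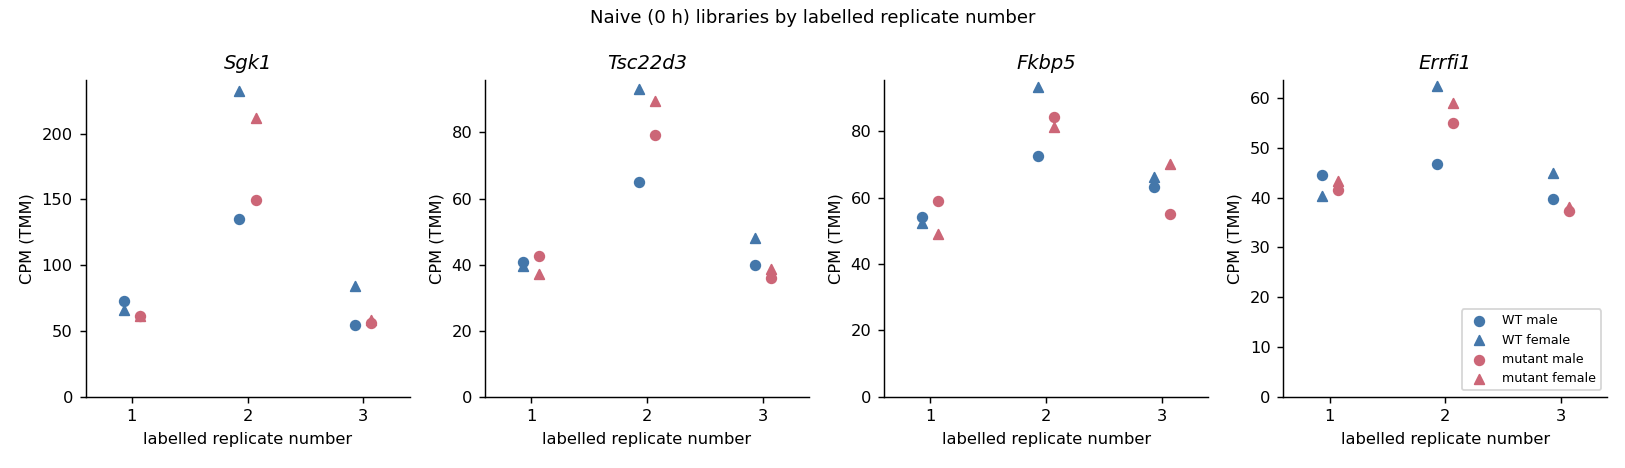
Sgk1, Tsc22d3, Fkbp5 and Errfi1 (CPM after TMM scaling, vertical axis from 0) in the 12 naive libraries by labelled replicate number. Circles are males and triangles females, with colour for genotype. The 4 libraries numbered 2 stand above the other 8 in each panel.

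To see whether the genes moved together within a group, log2 CPM was centred on each group's mean and set against Fkbp5 over 36 libraries, with permutation within groups and adjustment over the 9 relations. The permutation took the libraries of a group as exchangeable. It made no allowance for the naive libraries numbered 2, which stood apart in Fkbp5, Sgk1, Tsc22d3 and Errfi1. The part of these libraries in the correlations, at 0 h above all, was not tested. Tsc22d3 rose with Fkbp5 (Pearson r = 0.74, permutation p = 1e-05, the smallest 100000 permutations can give, adjusted p = 3e-05; Spearman rho = 0.72, permutation p = 5e-05, adjusted p = 0.00018). Zbtb16 did likewise (r = 0.71, permutation p = 1e-05, adjusted p = 3e-05; rho = 0.72, permutation p = 6e-05, adjusted p = 0.00018). Cdkn1a gave r = 0.59 (permutation p = 0.00051, adjusted p = 0.00115) and rho = 0.58 (permutation p = 0.00092, adjusted p = 0.00207). Nr3c1 fell as Fkbp5 rose (r = -0.73, permutation p = 1e-05, adjusted p = 3e-05; rho = -0.76, permutation p = 1e-05, adjusted p = 9e-05). Nr3c2 gave r = -0.47 (permutation p = 0.00333, adjusted p = 0.00599) and rho = -0.47 (permutation p = 0.00487, adjusted p = 0.00877). Without the 2 libraries farthest from the median of Fkbp5, r was 0.71 for Tsc22d3, 0.71 for Zbtb16, 0.50 for Cdkn1a, -0.72 for Nr3c1 and -0.48 for Nr3c2.

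Within the 12 libraries of each time point, r of Fkbp5 with Tsc22d3 was 0.89 at 0 h, 0.66 at 1 h and 0.58 at 3 h. With Zbtb16 it was 0.59, 0.50 and 0.92, with Cdkn1a 0.63, 0.30 and 0.69, and with Nr3c1 -0.90, -0.63 and -0.62, so that these 4 relations had the same sign at each time. With Nr3c2 it was -0.89 at 0 h and -0.71 at 1 h, but 0.04 at 3 h. Without the discordant libraries r with Zbtb16 at 1 h was 0.76 and r with Nr3c2 at 3 h was -0.11, while the signs for Tsc22d3, Zbtb16, Cdkn1a and Nr3c1 were the same at each time. Sgk1 gave a pooled r of 0.50 (permutation p = 0.00874, adjusted p = 0.0131) and rho of 0.50 (permutation p = 0.00807, adjusted p = 0.0121), and 0.49 without the 2 farthest libraries. Its r was 0.85 at 0 h, 0.03 at 1 h and 0.20 at 3 h. Both low values rested on the 2 discordant libraries. Without them, and with group means taken again, r was 0.38 at 1 h and 0.66 at 3 h over 11 libraries each, and the pooled r was 0.72. Errfi1 gave a pooled r of 0.42 (permutation p = 0.0305, adjusted p = 0.0343), rho of 0.43 (permutation p = 0.0214, adjusted p = 0.0276), 0.32 without the 2 farthest libraries, and r of 0.78, -0.10 and 0.27 at 0, 1 and 3 h. Without the discordant libraries its r was 0.40 at 1 h and 0.82 at 3 h, and the pooled r was 0.73. Pdk4 gave r = 0.42 (permutation p = 0.0225, adjusted p = 0.0289), rho = 0.38 (permutation p = 0.0352, adjusted p = 0.0396) and 0.32 without the 2 farthest libraries, with r of 0.45, 0.14 and 0.58 by time. Without the discordant libraries its r was 0.33 at 1 h and 0.75 at 3 h, and the pooled r was 0.52. With all 36 libraries centred by labelled sex as well, its r was 0.18. Hsd11b1 gave r = 0.30 (permutation p = 0.121, adjusted p = 0.121), rho = 0.29 (permutation p = 0.131, adjusted p = 0.131) and 0.35 without the 2 farthest libraries, with r of 0.13, -0.13 and 0.77 by time. Without the discordant libraries its r was -0.30 at 1 h and 0.67 at 3 h, and the pooled r was 0.20. With all 36 libraries centred by labelled sex as well, its r was 0.18 too.

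**Figure D4:**
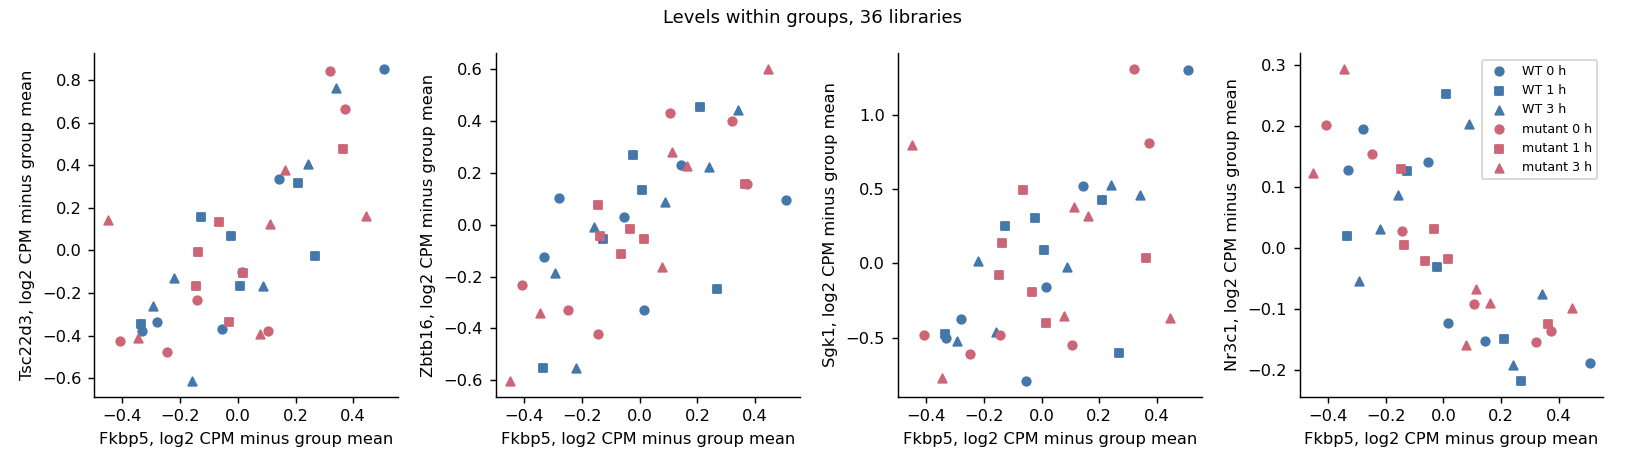
Tsc22d3, Zbtb16, Sgk1 and Nr3c1 (vertical axes) against Fkbp5 (horizontal axes), each as log2 CPM minus its group's mean, in 36 libraries. Colour is genotype and shape is time. Tsc22d3 and Zbtb16 rise and Nr3c1 falls with Fkbp5, while the Sgk1 points spread most among naive libraries.

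Fkbp5 was also set against the summed markers of 15 cell types or regions and against library size, 16 relations added after seeing the data. None passed after adjustment. The largest was with the mural markers Pdgfrb, Rgs5 and Kcnj8 (r = -0.43, permutation p = 0.0182, adjusted p = 0.292; rho = -0.38, permutation p = 0.0359, adjusted p = 0.574; r = -0.36 without the 2 farthest libraries), followed by the endothelial markers Cldn5, Flt1, Pecam1 and Ly6c1 (r = -0.39, permutation p = 0.0442, adjusted p = 0.354; rho = -0.31, permutation p = 0.0966, adjusted p = 0.716; r = -0.26 without the 2 farthest). The summed mural markers ran from 36.3 to 50.7 CPM at 0 h and from 31.5 to 48.2 CPM at 3 h, and the summed endothelial markers from 75.9 to 122 CPM and from 80.3 to 102 CPM. The dentate granule cell markers had medians of 213, 248 and 254 CPM in WT and of 234, 282 and 300 CPM in mutants in the order of time, with ranges that overlapped. With them r was 0.34 (permutation p = 0.0842, adjusted p = 0.449; rho = 0.17, permutation p = 0.374, adjusted p = 0.716; r = 0.18 without the 2 farthest). The part of these markers in the Fkbp5 levels and in the changes over time was not tested. With the choroid plexus markers r was 0.07 (permutation p = 0.701, adjusted p = 0.857; rho = 0.02, permutation p = 0.901, adjusted p = 0.901; r = -0.06 without the 2 farthest). The 5 genes whose pattern was most like that of Fkbp5 by this measure over 36 libraries were Mfsd2a (r = 0.89), Mertk (0.87), Sdc4 (0.87), Spns2 (0.87) and Hif3a (0.84). Mfsd2a encodes a transporter of lysolipids with docosahexaenoic acid, Mertk a receptor for phagocytosis, Sdc4 a heparan sulfate proteoglycan, and Hif3a a hypoxia-inducible factor.

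The wider pathway was taken as lists of genes named for their roles, chosen with earlier results of these data known. Mfsd2a, Sdc4 and Hif3a, named above for patterns like that of Fkbp5, are among the other glucocorticoid-induced genes. Of 23 other glucocorticoid-induced genes, 2 rose at 1 h, the clock gene Per1 and the repressor Bcl6, and 0 fell, where 1.05% of all genes were called. At an unadjusted p under 0.05, 10 were higher and 0 lower, where 12.8% of all genes passed. Per1 went from a mean of 83.7 CPM to 122 CPM (log2 fold change 0.53, SE 0.09, adjusted p = 0.00626), and Bcl6 from 49.6 to 62.7 CPM (0.34, SE 0.07, adjusted p = 0.0155). At 3 h 4 of the 23 rose and 0 fell, where 1.57% of all genes were called, and at an unadjusted p under 0.05, 14 were higher and 0 lower, where 15.1% of all genes passed. They were Xdh, a purine-degrading oxidase (mean 3.75 to 7.75 CPM, log2 fold change 1.03, SE 0.17, adjusted p = 0.0065), the astrocyte connexin gene Gjb6 (0.50, SE 0.10, adjusted p = 0.0186), the transcription factor gene Klf9 (0.29, SE 0.07, adjusted p = 0.0284) and Mfsd2a (0.66, SE 0.16, adjusted p = 0.0426). The part of the choroid plexus markers, with medians after 3 h of 1460 CPM in mutants, from 190 CPM in naive ones, and of 2170 CPM in WT, from 2070 CPM, in these changes was not tested. The median log2 fold change of the 23 was 0.28 at 1 h and 0.29 at 3 h. Without the discordant libraries, 4 of the 23 rose at 1 h, where 1.99% of all genes were called, and 7 at 3 h, where 2.93% were. Arl4d (0.74, adjusted p = 0.0253) and Ddit4 (0.46, adjusted p = 0.0344) then joined at 1 h. Cebpd (0.27, adjusted p = 0.0466), Gpd1 (0.26, adjusted p = 0.02) and Sult1a1 (0.72, adjusted p = 0.0446) then joined at 3 h. Between 1 h and 3 h edgeR called 0 of the 23, with 10 higher and 5 lower at an unadjusted p under 0.05, which 11.1% of all genes reached, where 0.486% were called. In the fit without the discordant libraries, where 2.09% of all genes were called, Plin4 rose (1.71, adjusted p = 0.0103) while Per1 (-0.44, adjusted p = 0.0023), Dusp1 (-0.51, adjusted p = 0.0147) and Ddit4 (-0.48, adjusted p = 0.00595) fell.

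Receptor chaperones, hormone handling and the CRH system were read in the same way. Of 6 receptor chaperones 0 were called at 1 h and 0 at 3 h, with medians of 0.01 and -0.01, and 1 had an unadjusted p under 0.05 at 1 h, which 12.8% of all genes reached then and 15.1% at 3 h. The 2 with the smallest p were Ptges3, the p23 co-chaperone gene (0.11, SE 0.05, adjusted p = 0.296 at 1 h), and Fkbp4, whose product promotes receptor transport (0.06, SE 0.04, adjusted p = 0.492 at 3 h). Of 4 tested genes for hormone handling 0 were called at either time (medians -0.02 and 0.05), and 0 had an unadjusted p under 0.05. Hsd11b2, which inactivates corticosterone, averaged 0.14 CPM at 0 h, and H6pd, which supplies the cofactor of Hsd11b1, 9.14 CPM. Without the discordant libraries H6pd, 1 of the 4, was higher at 3 h than at 1 h (0.22, adjusted p = 0.0396), where 2.09% of all genes were called, against 0 of 4 and 0.486% with them. Of 4 genes of the CRH system 0 were called at 1 h and 0 at 3 h (medians 0.02 and -0.14), and 0 had an unadjusted p under 0.05. The receptor gene Crhr2 was at a log2 difference of -0.61 (SE 0.30, adjusted p = 0.394) at 1 h, and Crhbp at -0.16 (SE 0.10, adjusted p = 0.455) at 3 h.

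The immediate early genes placed these values in time. Fos averaged 11.4 CPM at 0 h, 27.1 CPM at 1 h and 12.6 CPM at 3 h, with a log2 fold change at 1 h of 1.25 (SE 0.24, adjusted p = 0.0128). Arc (0.87, SE 0.20, adjusted p = 0.0376) and Npas4 (0.78, SE 0.16, adjusted p = 0.0192) rose at 1 h as well. At 3 h the log2 difference from 0 h was 0.08 (SE 0.34) for Fos, -0.04 (SE 0.23) for Arc and 0.16 (SE 0.18) for Npas4. Without the discordant libraries it was -0.22 (SE 0.28) for Fos, -0.25 (SE 0.18) for Arc and 0.07 (SE 0.18) for Npas4, and the 3 stayed called at 1 h (1.33, 0.94 and 0.78). Pdk4, Errfi1, Per1 and Bcl6 shared with them a call at 1 h. Fkbp5, Xdh, Gjb6, Klf9 and Mfsd2a had their calls at 3 h. A call at only 1 of the times does not show that the times differ. Directly between 3 h and 1 h, edgeR called Fkbp5 alone of these target genes. That call was lost in 18 of 24 fits that left out 1 library. Without the discordant libraries Pdk4, Errfi1 and Per1 were called too, each lower at 3 h than at 1 h.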

How the data were processed

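Poly(A) RNA from dorsal hippocampus was sequenced as paired reads. Per the labels and the submitters' processing notes, the authors aligned reads to mm10 with STAR 2.7.8a and counted them per gene with featureCounts 2.0.1; the deposited values are raw counts for 27179 genes. Strand setting, annotation and treatment of multi-mapping reads are not given in the sources used here. Of the gene identifiers, 25275 were named from RefSeq, and the other 1904 held 1.284% of counts. Library totals were 40.3 M to 107.0 M counts. Samples were grouped by their labels; 8 samples of another cohort were not analysed here.

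Comparisons used edgeR 4.0.16 (limma 3.58.1, R 4.3.3): filterByExpr with a minimum count of 10, TMM, sex as labelled as a covariate, robust quasi-likelihood F-tests and Benjamini-Hochberg adjustment over all genes tested. Where genotypes were pooled, genotype was a term. The study's methods used DESeq2; DESeq2 1.42.0 was an alternative here. Others were RLE factors, no filter, a joint fit of all 36 libraries, dropping sex as a covariate, a replicate block, sex by transcripts, and leaving out libraries. Log2 CPM for correlations had a prior count of 2, and 100000 permutations were drawn within groups. Lengths per kb are merged GENCODE exons in GRCm38, the assembly named mm10. No exon of the 10 genes overlapped an exon of another counted gene. Fits were tested on simulated data. Python 3.11.15 with NumPy 2.4.6, pandas 2.3.3 and Matplotlib 3.10.9 made tables and figures.

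The genes followed, the pathway lists and the marker lists were chosen with earlier results of these data known. Named by rule were the 10 genes, list genes with an adjusted p under 0.05 in a comparison (1 list, with its called gene, is not reported here), the 5 genes most like Fkbp5 among those with a mean of at least 1 CPM, Fos, Arc, Npas4 and Kdm5b; genes named for calls without the discordant libraries were added after their values were seen.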

Additional observations from a re-analysis of the deposited data

Results flagged for a closer look

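Each of the 10 genes was checked in each of the 6 groups for a library far from the others, by the gap to the nearest library over the group's range (Dixon's test at the 95% level), in 60 sets of values. Chance gives about 1 such library in 20 sets, and 3 were found. Cdkn1a was at 14.01 CPM in WT 0 h female 2, where the next library was at 7.62 CPM. Errfi1 was at 62.4 CPM in the same library, where the next was at 46.74 CPM. Fkbp5 was at 102.09 CPM in mutant 1 h male 2, where the next was at 80.25 CPM.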

How the results depend on the processing

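Of 140 log2 fold changes, the 10 genes in 14 comparisons, 56 were followed in detail: those pooled over genotypes against time, those with an unadjusted p under 0.05, and values near 0 named in the text. Over their 421 values under alternatives other than leaving out 1 library, 394 kept direction and side of the threshold, 19 passed it newly, 6 lost it and 2 changed sign, both without the discordant libraries: Sgk1 between genotypes over the 3 time points (-0.07) and the genotype difference of Fkbp5 in the 3 h response (0.05). Over all 140, 21 of 1020 values changed sign, 13 of them without the discordant libraries; none exceeded 0.14 in size before the change, and their lowest adjusted p was 0.925 before and 0.904 after it. Leaving out 1 library also turned signs, with ranges of -0.08 to 0.14 for that Sgk1 value, -0.17 to 0.07 for that Fkbp5 value, -0.14 to 0.56 for the genotype difference of Sgk1 in the 1 h response, -0.03 to 0.11 for Tsc22d3 between 3 h and 1 h, and, between genotypes over the 3 time points, -0.03 to 0.01 for Nr3c1 and 0.00 to 0.07 for Fkbp5. Both genes called at 1 h over both genotypes, Fkbp5 at 3 h and Hsd11b1 between genotypes over the 3 time points stayed called under every alternative run, leaving out each library included. DESeq2 called 1 gene in WT at 3 h against 0 h (Zbtb16), 3 in mutants at 1 h (Cdkn1a, Errfi1 and Pdk4), 3 over both genotypes at 3 h (Fkbp5, Nr3c1 and Zbtb16), 3 between 3 h and 1 h (Errfi1, Fkbp5 and Pdk4) and 1 in mutants against WT at 3 h (Hsd11b1); its calls over all genes in these comparisons were 74, 370, 737, 290 and 47, where edgeR had 0, 54, 281, 87 and 2. Without the 2 discordant libraries the counts were 3 at 3 h against 0 h, 3 between 3 h and 1 h and 1 between genotypes at 3 h, the same genes, where 2.93%, 2.09% and 0.103% of all genes were called. With all 36 libraries in one fit they were 3 at 3 h against 0 h (Fkbp5, Nr3c1 and Zbtb16) and 0 between 3 h and 1 h, and in mutants at 1 h Errfi1 was called (0.57) in place of Pdk4, with 434, 39 and 51 called over all genes. Between 3 h and 1 h no filter gave 0 genes (42 over all genes) and no sex covariate 0 (61 over all genes). With sex by transcripts, the call between 3 h and 1 h went to Pdk4 (-0.55, adjusted p = 0.0366) and left Fkbp5 (0.37, adjusted p = 0.114), with 22 called over all genes. The cause of these changes was not tested. Leaving out 1 library gave 0 to 2 genes in mutants at 1 h, 2 to 4 over both genotypes at 1 h, 1 to 3 at 3 h, 0 to 3 between 3 h and 1 h and 0 to 1 between genotypes at 3 h, while the calls over all genes ran from 26 to 86, 79 to 359, 142 to 548, 16 to 231 and 0 to 18.

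The same replicate numbers recur in all groups, but the labels do not tie them to a shared litter or day. Libraries of the same sex and number deviated from their group means with correlations averaging 0.02 to 0.27 over 15 pairs of groups, and every correlation was over 0.1 in 1 of the 15, mutants at 0 h and 1 h. With the replicate block the genes called were 0 in mutants at 1 h and 3 over both genotypes at 3 h (Fkbp5, Nr3c1 and Tsc22d3, the last at 0.57 against 0.52 without it), with 37 and 452 called over all genes. The correlation of Fkbp5 with Sgk1 was 0.68 and with Errfi1 0.67 without the discordant libraries and with group means over all 36 libraries, and with Pdk4 it was 0.18 when values were also centred by labelled sex.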

Other observations

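Of 4 genes of the CRH system, the peptide signal that starts the stress response, 0 were called between genotypes over the 3 time points, where 1.3% of all genes were, and without the discordant libraries 1 was (Crhr1), where 2.77% were. At an unadjusted p under 0.05, 1 was higher and 2 were lower in mutants, where 15.2% of all genes passed. Crhr1, the main CRH receptor gene, averaged 9.75 CPM in mutants and 11.5 CPM in WT (log2 fold change over the 3 time points -0.24, SE 0.07, adjusted p = 0.0542 in edgeR), and -0.26 without the discordant libraries (adjusted p = 0.0213). Crhbp, which encodes a binding protein for CRH, averaged 18.6 CPM in mutants and 21.4 CPM in WT (-0.20, SE 0.07, adjusted p = 0.167). Crh itself averaged 1.77 CPM in mutants and 1.45 CPM in WT (0.29, SE 0.11, adjusted p = 0.162), and the receptor gene Crhr2 2.35 CPM and 3.10 CPM (-0.42, SE 0.25, adjusted p = 0.45). By the measure used for Fkbp5, the gene most like Sgk1 over 36 libraries was Nfkbia (r = 0.94), and the gene most like Errfi1 was Sgk1 (r = 0.89). Hsp90aa1, which encodes an inducible HSP90 chaperone of the receptor, averaged 400 CPM in mutants and 430 CPM in WT (-0.10, SE 0.03, adjusted p = 0.0563 in edgeR), and -0.11 without the discordant libraries (adjusted p = 0.0302). Kdm5b counts over the whole gene differed by -0.08 (SE 0.02, adjusted p = 0.0581), and by -0.11 without the discordant libraries (adjusted p = 0.00113).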
